A study of Rattus norvegicus with 6 samples.

Results

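The genes described here are 10 genes of the contractile actin cytoskeleton: the crosslinkers Actn1 and Flna, the myosin light chain Myl9, the calponin family members Tagln, Tagln2, Cnn1 and Cnn2, the tropomyosins Tpm1 and Tpm2, and the caldesmon Cald1. They were listed by name, and their 20 probe sets are all those that the platform's annotation pairs with exactly one of these symbols, out of 31042 probe sets tested and 14217 genes. The samples were rat cells of the Sprague-Dawley strain: 3 arrays of embryonic stem (ES) cells and 3 arrays of flat pluripotent stem (fPS) cells, with a description field that calls the fPS samples embryonic stem cells too. The labels give both groups the same culture, a medium with LIF, the GSK3 inhibitor CHIR99021 and the MEK inhibitor PD0325901, and upkeep in serum on mouse embryonic fibroblasts (feeder cells) treated with mitomycin C. The cells were taken off by hand, and the labels do not say whether feeder cells were removed, how the lines were derived or how many lines were used. Nor do they tell if a group's samples are separate cultures, and the p-values therefore cover the spread among these arrays alone, which could be technical.

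Actin filaments bear load when they are bundled by crosslinkers, coated by tropomyosin and pulled by non-muscle or smooth muscle myosin, whose light chain switches the motor on when phosphorylated. Calponins, transgelins and caldesmon bind along the filament and are classical markers of smooth muscle, although each family also has members found in many other cells. Many of these genes are controlled by the serum response factor SRF and its actin-regulated cofactors, which bind a DNA element named the CArG box. In pluripotent cultures they are of interest because spread cells, feeder fibroblasts and differentiating cells build stress fibres, whereas colonies of ES cells are compact.

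None of the 10 genes passed limma's test between ES and fPS cells, and the 4 probe sets with the clearest separation were all tropomyosins. Values are intensities, 1 per probe set and array on a linear scale, and changes are differences of log2(intensity + 16) between fPS and ES cells, a scale that understates changes of dim probe sets. In each gene, the probe set with the highest mean stands for the gene. At a threshold of 0.05 for p-values adjusted by Benjamini-Hochberg over the whole array, limma called 0 of the 10 genes and 0 of the 20 probe sets, where 0.858% of all genes and 0.693% of all probe sets passed. At an unadjusted p under 0.05, limma gave 1 of the 10 genes, against 17.5% of all genes, and 4 of the 20 probe sets, all higher in fPS cells, against 15.4% of all probe sets in either direction and 7.56% higher in fPS cells. The arrays of the groups did not overlap in the same 4 probe sets, 3 of Tpm1 and 1 of Tpm2, against 20.0% of all probe sets in either direction and 10.1% with fPS above ES. Of the genes, 1 of 10 (Tpm2) had groups without overlap, against 22.6% of all genes. Since 3 of these 4 belong to 1 gene, they are not independent of each other. The median change over the 10 genes was 0.093, with 7 of 10 positive, beside a median of -4.6e-05 over all genes.

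**Figure D1:**
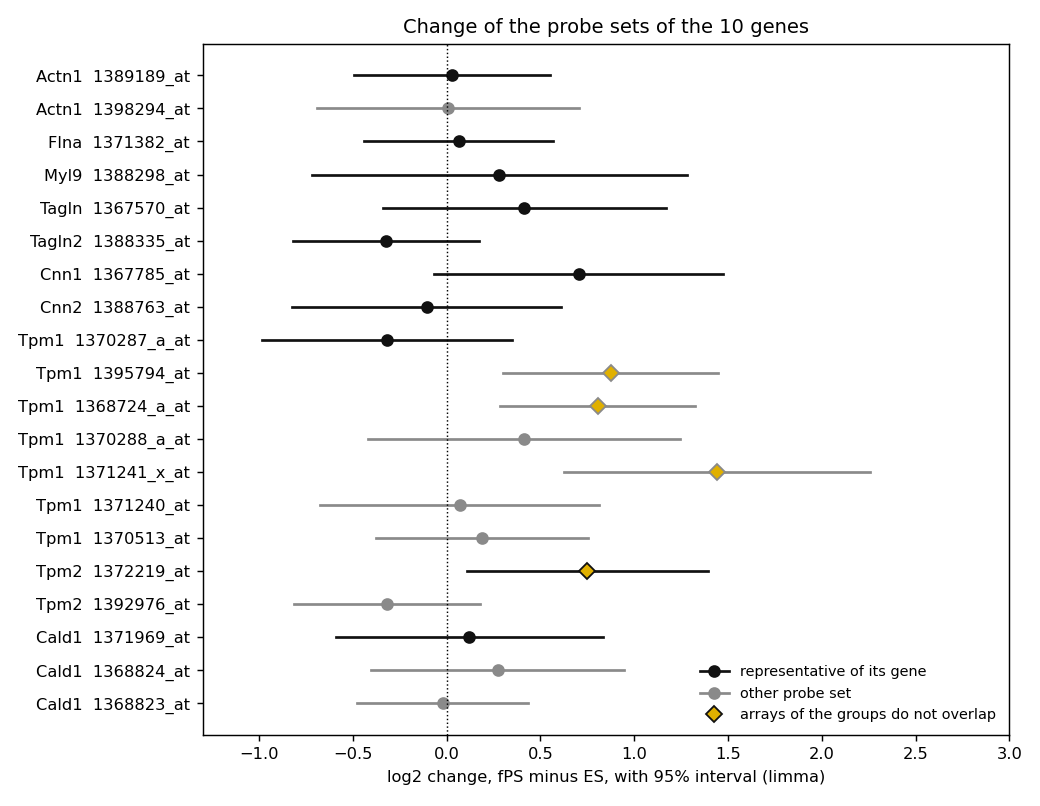
Log2 change of fPS minus ES cells for the 20 probe sets of the 10 genes, with 95% intervals from limma over 3 arrays per group; black marks the probe set that stands for its gene, and yellow diamonds the probe sets whose groups do not overlap. The 4 diamonds are 3 probe sets of Tpm1 and 1 of Tpm2, with changes from 0.75 to 1.44.

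The arrays had median intensities between 36.2 and 45.3. Of 12 genes listed as markers of pluripotent stem cells, 6 had a probe set of their own, and all 6 were above the median intensity on every array. Their summed intensity lay between 8460 and 12590 on the ES arrays and between 5700 and 9000 on the fPS arrays. Of the 6, limma called 0. An unadjusted p under 0.05 was reached by 2 (Sox2 and Lin28a), both lower in fPS cells, against 17.5% of all genes. Sox2, which helps to hold cells pluripotent, had 3427, 3266 and 4618 in ES and 2838, 1856 and 1281 in fPS cells, without overlap (log2 change -0.97, adjusted p = 0.181 by limma). Lin28a had 1559, 866 and 1161 in ES and 669, 351 and 424 in fPS cells, also without overlap (adjusted p = 0.0933 by limma). The groups overlapped in Tfcp2l1, Klf4, Esrrb and Sall4, with log2 changes of 0.046, -0.27, -0.29 and -0.15.

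Tropomyosins, rods that wind along the filament and set which proteins can bind it, held the largest differences. Tpm2 had intensities of 40.6, 37.4 and 40.6 in ES and 46.1, 85.0 and 114 in fPS cells on 1372219_at, the probe set that stands for it. All 3 fPS arrays lay above the ES arrays, fPS replicate 1 only narrowly, and ES replicate 2 was below the median intensity of its array. The log2 change was 0.75 (SE 0.283, 95% interval 0.11 to 1.39) and did not pass (unadjusted p = 0.0269, adjusted p = 0.250 by limma). The other Tpm2 probe set, 1392976_at, ran the other way, with 14.1, 14.7 and 21.5 in ES and 14.1, 11.0 and 5.96 in fPS cells, giving a log2 change of -0.32 (SE 0.218), and lay below the array's median intensity on all 6 arrays. As the mean over both probe sets, Tpm2 had a log2 change of 0.22 (adjusted p = 0.642 by limma).

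The 7 probe sets of Tpm1 did not give 1 answer. Transcripts of Tpm1 are known to differ between muscle and other cells by alternative start sites and exons, so probe sets of the gene can measure different transcripts. The probe set with the highest mean, 1370287_a_at, had 156, 108 and 231 in ES and 132, 149 and 95.2 in fPS cells. The groups overlapped, and the log2 change was -0.32 (SE 0.294, adjusted p = 0.678 by limma). The probe set 1371241_x_at had 26.6, 33.4 and 84.6 in ES and 143, 106 and 202 in fPS cells, with every fPS array above every ES array and ES replicate 3 the highest of the ES arrays. Its log2 change of 1.44 (SE 0.359, 95% interval 0.62 to 2.26) was the largest among the 20 probe sets, with an unadjusted p of 0.00325 and an adjusted p of 0.103 by limma. ES replicates 1 and 2 lay below the median intensity of their arrays. The probe set passed when the dimmest 30% or 50% of probe sets were left out (adjusted p = 0.0401 and 0.0291 by limma). Over the whole array, limma then called 759 of 21729 and 899 of 15521 probe sets, against 215 of 31042 without a filter. The suffix _x_at marks probe sets with probes that may also match other sequences.

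A further pair of Tpm1 probe sets also separated the groups. The probe set 1395794_at had 63.6, 85.2 and 122 in ES and 173, 199 and 153 in fPS cells, giving a log2 change of 0.87 (SE 0.253, adjusted p = 0.15 by limma). The probe set 1368724_a_at had 91.8, 62.9 and 94.7 in ES and 138, 147 and 184 in fPS cells, giving a log2 change of 0.81 (SE 0.228, adjusted p = 0.144 by limma). In both, the lowest fPS array was above the highest ES array. The probe set 1370288_a_at overlapped, with 83.1, 53.7 and 185 in ES and 153, 115 and 133 in fPS cells and a log2 change of 0.41 (SE 0.365), and here ES replicate 3 was the highest of all 6 arrays. The 2 other Tpm1 probe sets lay below the median intensity of every array and had log2 changes of 0.069 and 0.19.

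**Figure D2:**
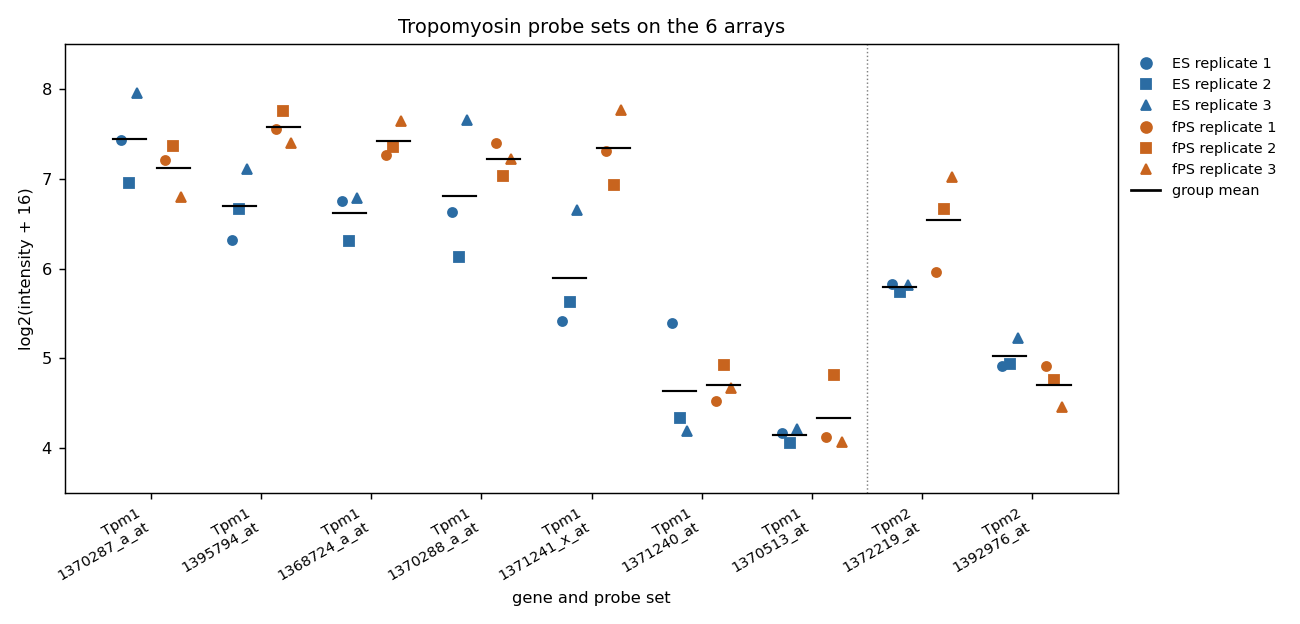
Log2(intensity + 16) of the 7 Tpm1 and 2 Tpm2 probe sets on the 3 ES arrays (blue) and 3 fPS arrays (orange); marker shapes give the replicate and black lines the group means. Levels of different probe sets are not comparable with each other. The probe sets 1395794_at, 1368724_a_at and 1371241_x_at of Tpm1 and 1372219_at of Tpm2 have all fPS arrays above all ES arrays, while 1370287_a_at has the lower mean in fPS cells.

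The difference between probe sets of the same gene was tested within each array, which removes the scaling between arrays. Each further probe set of Actn1, Cald1, Tpm1 and Tpm2 was set against the one that stands for its gene, in 10 comparisons chosen after the values, and their opposite signs, were seen. For Tpm1, the log2 difference from 1370287_a_at was higher on all fPS arrays than on all ES arrays for 1371241_x_at (by 1.76 on average), 1395794_at (by 1.19) and 1368724_a_at (by 1.12). For Tpm2, the difference of 1392976_at from 1372219_at was lower on all fPS arrays, and no size is given because 1392976_at lay below the median intensity of every array. Each of these 4 had an exact permutation p of 0.1, two-sided, the smallest that 3 arrays against 3 allow, and 0.25 after Benjamini-Hochberg adjustment over the 10, of which 6 share 1370287_a_at. The 4 kept their separation with pseudocounts of 1 and 64. In the other 6 comparisons, among them those of Actn1 and Cald1, the groups overlapped. No share of such differences was computed over the probe sets of other genes, so the count of 4 in 10 has no background.

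Tpm1 and Tpm2 are shown with their promoter windows, since they held the separated probe sets. The windows are RefSeq sequences of the assembly GRCr8, from 250 bases before to 50 bases after the annotated gene start, and Tpm1 has further known start sites that they do not cover. Of the 10 genes, 8 matched the RefSeq promoter table, with 9 promoters, and Myl9 and Tagln did not. Each window was searched on both strands for the CArG box, for GGAATG (the core that TEAD factors bind), GGGCGG (the GC box of SP1), TGANTCA (the AP-1 site) and TATAAA. Capitals mark every match, and no matches overlap in the windows printed here.
Tpm1 promoter, GRCr8 chr8:76543366-76543665, minus strand: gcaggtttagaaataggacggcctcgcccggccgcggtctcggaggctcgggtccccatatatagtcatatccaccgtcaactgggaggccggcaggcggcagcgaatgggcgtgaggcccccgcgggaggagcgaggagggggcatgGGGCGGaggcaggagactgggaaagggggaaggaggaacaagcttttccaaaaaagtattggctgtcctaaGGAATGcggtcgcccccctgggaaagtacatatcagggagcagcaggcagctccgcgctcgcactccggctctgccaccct
Tpm2 promoter, GRCr8 chr5:62575677-62575976, minus strand: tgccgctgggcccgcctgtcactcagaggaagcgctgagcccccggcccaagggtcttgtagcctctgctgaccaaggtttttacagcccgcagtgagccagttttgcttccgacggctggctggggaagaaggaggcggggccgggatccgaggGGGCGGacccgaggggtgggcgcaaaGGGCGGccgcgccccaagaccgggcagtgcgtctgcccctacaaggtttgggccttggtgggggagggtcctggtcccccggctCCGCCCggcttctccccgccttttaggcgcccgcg
In Tpm1, GGAATG lies from -31 to -26 and GGGCGG from -102 to -97, counted from the gene start. GGAATG occurs in 14.2% of 33469 promoters in the table and in 4 of the 9 promoters of these genes, those of Tpm1, Flna, Tagln2 and Cald1. In Tpm2, GGGCGG lies from -95 to -90, from -69 to -64 and, on the other strand, from 16 to 21. It occurs in 33.1% of all promoters and in 7 of the 9 here. TGANTCA, found in 7.33% of all promoters, has 0 matches here, and TATAAA, found in 14.2%, has a match in 1, of Cald1. A match says only that these letters are in the window.

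In the calponin family, Cnn1 and Tagln lay below the median intensity of every array, and Cnn2 and Tagln2 above it. Cnn1, the calponin of smooth muscle, had intensities of 11.7, 3.52 and 1.74 in ES and 22.2, 34.8 and 5.35 in fPS cells. Its fPS replicates 1 and 2 lay above all ES arrays and replicate 3 among them, and all 6 values were below the median intensity of their array. The log2 change of 0.70 (SE 0.339, 95% interval -0.066 to 1.47) did not pass (adjusted p = 0.371 by limma). It was 1.05 without fPS replicate 3 and 0.43 without fPS replicate 2 (adjusted p = 0.186 and 0.726), and 1.69 and 0.27 with pseudocounts of 1 and 64. Tagln, or SM22, an early marker of smooth muscle, had 1.21, 1.65 and 2.56 in ES and 2.30, 1.59 and 25.5 in fPS cells. Only fPS replicate 3 stood apart, and all 6 values again were below the median of their array. The log2 change was 0.41 (SE 0.332, adjusted p = 0.618 by limma), and 0.012 without fPS replicate 3, 1.15 with a pseudocount of 1 and 0.15 with 64.

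Tagln2, the transgelin of many non-muscle cells, had 1603, 1289 and 1504 in ES and 1389, 993 and 1139 in fPS cells. A single fPS array, replicate 1, reached into the range of the ES arrays. The log2 change was -0.32 (SE 0.218, 95% interval -0.82 to 0.17, adjusted p = 0.540 by limma), and it was negative in every setting tried, from -0.45 to -0.17. Cnn2, a calponin of non-muscle as well as smooth muscle cells, had 676, 959 and 1244 in ES and 631, 824 and 1240 in fPS cells. The groups covered almost the same range, with a log2 change of -0.11 (SE 0.315, 95% interval -0.82 to 0.61, adjusted p = 0.925 by limma). Cnn2 is shown because it was the one gene of the 8 with a CArG box in its window, in capitals here with the GGGCGG matches from -138 to -133 and from -31 to -26.
Cnn2 promoter, GRCr8 chr7:10370263-10370562, minus strand: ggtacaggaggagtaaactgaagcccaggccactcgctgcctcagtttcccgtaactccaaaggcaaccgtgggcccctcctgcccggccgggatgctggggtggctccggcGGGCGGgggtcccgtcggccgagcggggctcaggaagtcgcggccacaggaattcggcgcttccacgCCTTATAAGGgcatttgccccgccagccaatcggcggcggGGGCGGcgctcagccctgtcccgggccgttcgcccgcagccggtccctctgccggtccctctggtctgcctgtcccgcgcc
The CArG box of Cnn2, CCTTATAAGG, lies from -71 to -62 before the gene start. A CArG box, meaning CC, then 6 bases that are A or T, then GG, occurs in 1.64% of all promoters in the table, and among 53 other actin cytoskeleton genes with an entry it was found in 4 (Acta1, Actc1, Actg1 and Srf). No match means only that these letters are not in this window.

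**Figure D3:**
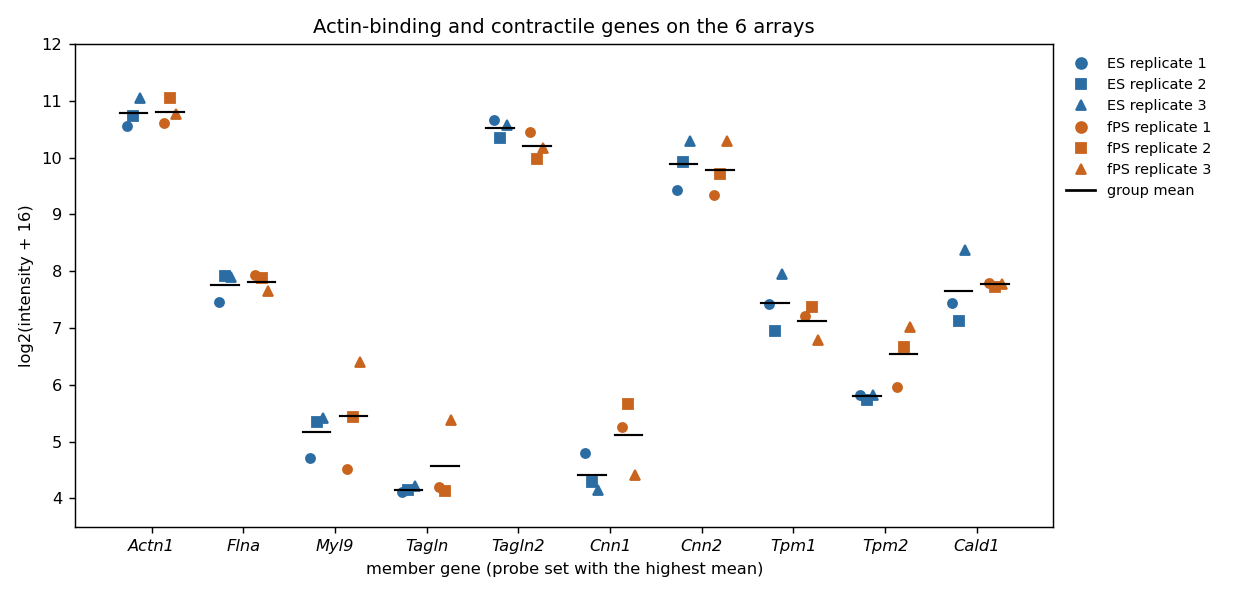
Log2(intensity + 16) of the probe set that stands for each of the 10 genes, on the 3 ES arrays (blue) and 3 fPS arrays (orange), with group means as black lines; levels of different genes are not comparable with each other. Tpm2 is the one gene whose groups do not overlap, and Tagln and Myl9 are highest on fPS replicate 3.

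The crosslinkers had nearly equal means in both groups. Actn1, a non-muscle α-actinin that bundles filaments in stress fibres and at focal adhesions, had 1486, 1687 and 2111 in ES and 1537, 2107 and 1737 in fPS cells. The arrays overlapped throughout, and the change was 0.029 in log2 units (SE 0.229, adjusted p = 0.976 by limma) and a 95% interval of -0.49 to 0.55. Its other probe set, 1398294_at, had 287, 236 and 557 in ES and 317, 356 and 344 in fPS cells, with ES replicate 3 the highest and a log2 change of 0.0082 (SE 0.308). Flna, filamin A, which joins filaments into networks and ties them to membrane receptors, had 159, 224 and 223 in ES and 229, 219 and 184 in fPS cells. Its log2 change was 0.065 (SE 0.221, 95% interval -0.44 to 0.57, adjusted p = 0.937 by limma). Changes up to the ends of these intervals are compatible with the data, so equal levels are not shown.

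Myl9, the regulatory light chain of smooth muscle and non-muscle myosin II, varied more within fPS cells than between the groups. It had 10.3, 24.8 and 26.9 in ES and 6.83, 27.0 and 68.3 in fPS cells, so fPS replicate 1 was the lowest and fPS replicate 3 the highest of all 6 arrays. The log2 change of 0.28 (SE 0.440, 95% interval -0.72 to 1.28, adjusted p = 0.831 by limma) was -0.19 without fPS replicate 3 and 0.75 without fPS replicate 1. Cald1, caldesmon, which binds actin, tropomyosin and myosin and holds back the motor, had 158, 124 and 314 in ES and 205, 196 and 204 in fPS cells on the probe set 1371969_at. The fPS arrays lay close together and inside the ES range, and the log2 change was 0.12 (SE 0.313, adjusted p = 0.912 by limma). On the probe set 1368824_at Cald1 had 98.9, 111 and 162 in ES and 119, 122 and 228 in fPS cells, giving a log2 change of 0.27 (SE 0.296), and its remaining probe set was below the median intensity of every array.

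ES replicate 3 was the highest of the 3 ES arrays in 14 of the 20 probe sets, where it was the highest in 42.7% of all probe sets. Several of the 20 share a gene, and by gene it was the highest in 6 of 10. The fPS replicates 1, 2 and 3 were the highest fPS array in 6, 7 and 7 of the 20, beside 49.5%, 27.4% and 23.1% of all probe sets. By gene they were the highest in 3, 3 and 4 of 10. The 10 genes had mean log2 values of 7.24, 7.25 and 7.58 in ES and 7.33, 7.56 and 7.67 in fPS cells, so ES replicate 3 lay within the fPS range. The corresponding means of all genes were 6.96, 6.94 and 7.03 in ES and 7.10, 6.99 and 6.86 in fPS cells. The array on which these 10 genes were highest, fPS replicate 3, thus had the lowest mean over all genes. The within-group SD of log2 values had a median of 0.413 over the 20 probe sets, against 0.327 over all probe sets.

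Markers of fibroblasts, the cell type of the feeder layer, were measured on the same arrays. The feeders were mouse cells and the probe sets are annotated to rat genes. How far mouse RNA reaches these probe sets was not tested, so the marker level is not a measure of feeder content. Of 21 markers listed and measured, limma called 0, with 5 at an unadjusted p under 0.05, against 17.5% of all genes. Of these 5, 4 were higher in fPS cells (Fbln1, Mmp2, Pdgfra and Postn) and 1 lower (Col5a1). Over all 14217 genes, 1221 were higher and 1263 lower at that threshold. The 21 markers summed to an intensity of 868, 1038 and 3364 in ES and of 1678, 1671 and 2950 in fPS cells, highest on replicate 3 in both groups. ES replicate 3 was the highest ES array in 16 of the 21. Col1a2, a chain of type I collagen, had 4.03, 53.1 and 712 in ES and 126, 112 and 541 in fPS cells. Of the 21, 4 lay above the median intensity on every array (Col1a1, Col5a1, Fbln1 and Fbln2) and 5 below it on every array (Fbn1, Lox, Pdgfrb, Prrx1 and Thy1), where Thy1, a surface marker, had 1.91, 2.89 and 27.1 in ES and 11.3, 13.5 and 13.2 in fPS cells. With the mean of the 21 markers as a covariate, the log2 change was 1.08 for 1371241_x_at of Tpm1 (adjusted p = 0.0877), 0.66 for Tpm2 (adjusted p = 0.318) and -0.0094 for Myl9 (adjusted p = 0.993), all by limma. These were smaller than without it. Others were larger in size: Cnn1 had 0.95 against 0.70, Cnn2 -0.37 against -0.11 and 1370287_a_at of Tpm1 -0.41 against -0.32. Without both arrays numbered 3, 1371241_x_at, Tpm2 and Myl9 had changes of 1.60, 0.53 and -0.064 (adjusted p = 0.177, 0.470 and 0.965 by limma). In bulk samples, more cells of a type and more RNA per cell cannot be told apart, and the part of feeder RNA in these values was not tested.

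**Figure D4:**
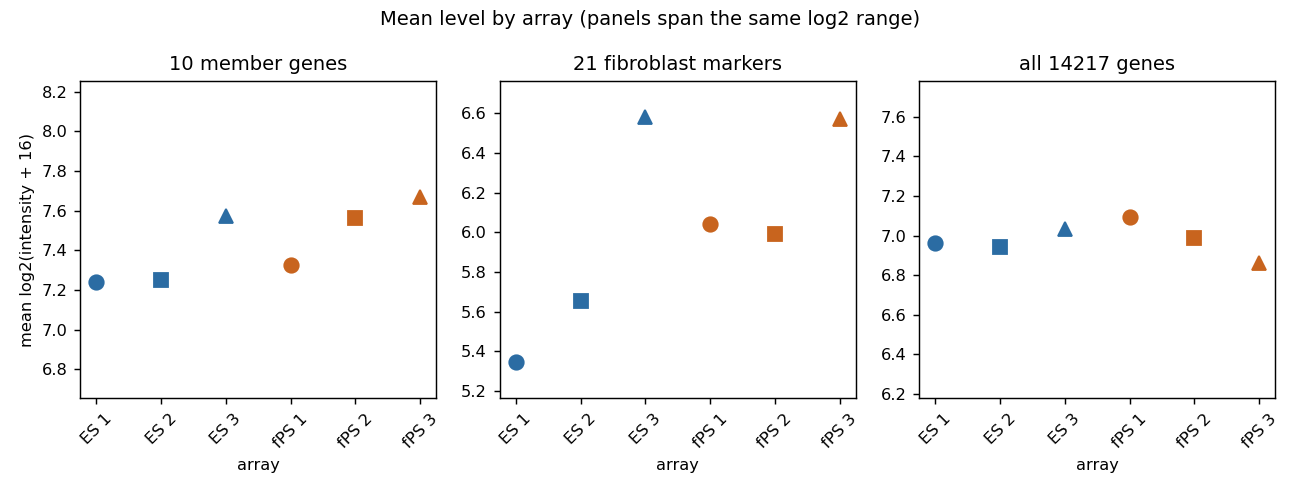
Mean log2(intensity + 16) on each of the 6 arrays over the 10 genes, the 21 fibroblast markers and all 14217 genes; each panel spans the same range of log2 units, ES arrays in blue and fPS arrays in orange. ES replicate 3 and fPS replicate 3 are the highest arrays of their group for the 10 genes (7.58 and 7.67) and for the fibroblast markers (6.58 and 6.57), while over all genes fPS replicate 3 is the lowest (6.86).

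Muscle markers were measured too. Of 9 smooth muscle markers, a list that contains Cnn1, limma called 0, with 1 at an unadjusted p under 0.05, against 17.5% of all genes. This was Des (desmin, the intermediate filament of muscle), with 61.8, 48.2 and 50.1 in ES and 127, 112 and 108 in fPS cells (log2 change 0.93, adjusted p = 0.0764 by limma). The summed intensity of the 9, which includes Des, was 226 to 260 on the ES arrays and 263 to 429 on the fPS arrays. Their mean log2 values overlapped, with 5.316, 5.224 and 5.244 in ES and 5.734, 5.223 and 5.631 in fPS cells. Of 9 measured cardiac and skeletal muscle markers limma called 0, with 2 at an unadjusted p under 0.05, against 17.5% of all genes. Both were higher in fPS cells. Acta1 had 9.42, 7.23 and 20.9 in ES and 35.1, 26.2 and 53.5 in fPS cells (log2 change 0.93). Tnnt2, cardiac troponin T, had 2.11, 13.1 and 16.2 in ES and 49.3, 69.1 and 51.9 in fPS cells (log2 change 1.49, adjusted p = 0.0504 by limma). The summed intensity of that list was 78.1 to 101 on the ES arrays and 155 to 216 on the fPS arrays. Their part in the values of the 10 genes was not tested.

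Among other genes of the actin cytoskeleton, paralogs of the 10 genes lay on both sides. Of 65 names listed, 55 were measured; limma called 0, and 8 had an unadjusted p under 0.05, 5 higher and 3 lower in fPS cells, against 17.5% of all genes in either direction. The groups did not overlap in 13 of the 55, 5 above and 8 below, close to the share over all genes, and the median change was -0.00012. The lower 3 were Tpm3, a tropomyosin of most cells, with 4618, 4017 and 6505 in ES and 3864, 2950 and 2069 in fPS cells (log2 change -0.78, SE 0.292), Cnn3, the acidic calponin, with a change of -0.75 (SE 0.272), and Vcl, vinculin of focal adhesions, with -0.64 (SE 0.267). The adjusted p values of these 3 were 0.246, 0.231 and 0.294 by limma. The higher 5 were Gsn, Pls3, Acta1, Ppp1r14a and Tagln3. Gsn, gelsolin, which severs filaments, had 265, 294 and 453 in ES and 619, 933 and 1011 in fPS cells (log2 change 1.31, adjusted p = 0.0764 by limma). The changes of Pls3, Acta1, Ppp1r14a and Tagln3 were 0.68, 0.93, 0.98 and 0.89. Acta1, Ppp1r14a and Tagln3 were dim, with mean intensities of 12.5, 10.0 and 8.05 in ES and 38.3, 35.4 and 31.2 in fPS cells. The median intensities of the arrays were 36.2 to 45.3. Gsn was named after its values were seen, as were Pls3, Acta1 and Ppp1r14a. It passed without the dimmest 30% or 50% of probe sets and with the trend and robust settings of limma (adjusted p = 0.0306, 0.0212 and 0.0336).

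The remaining actin genes described here had smaller changes, and none passed. Srf itself had 477, 357 and 485 in ES and 824, 457 and 470 in fPS cells, giving a log2 change of 0.36 (SE 0.277), and its cofactor Mrtfa a change of 0.094. The smooth muscle actins Acta2 and Actg2 had changes of 0.27 and -0.00012. The heavy chains of non-muscle myosin, Myh9 and Myh10, had 0.17 and -0.0085, and the kinases that switch myosin on, Mylk and Rock1, had 0.24 and -0.21. Actn4, the other non-muscle α-actinin, had -0.074, Tpm4 -0.47, and Pfn1, profilin, which feeds monomers to growing filaments, -0.42. Vasp, which extends filaments, had 0.092, and Lasp1, an adaptor at focal adhesions, had 0.58.

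**Figure D5:**
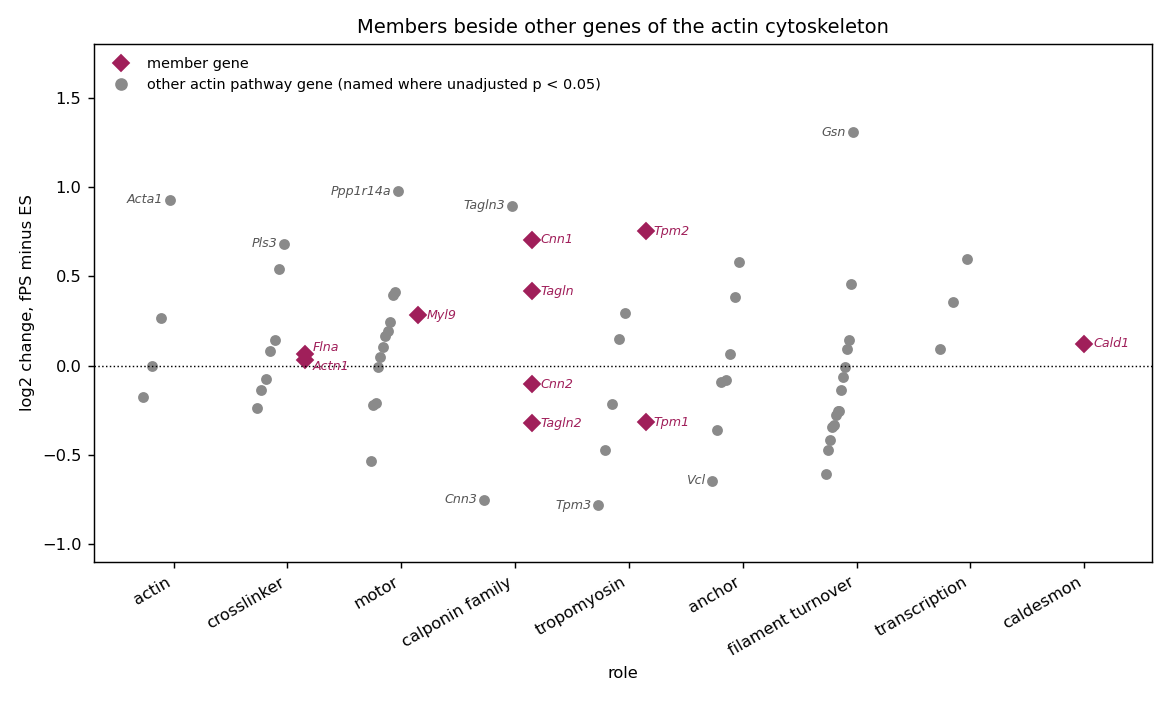
Log2 change of fPS minus ES cells for the 10 genes (diamonds, by the probe set that stands for each) and 55 other actin cytoskeleton genes (grey), by role; grey points are named where the unadjusted p is under 0.05. Within the tropomyosins Tpm2 is the highest (0.75) and Tpm3 the lowest (-0.78). Within the calponin family Tagln3 (0.89) and Cnn1 (0.70) are the highest and Cnn3 (-0.75) the lowest. Tagln3 and Cnn1 are dim, with mean intensities of 8.05 and 5.67 in ES and 31.2 and 20.8 in fPS cells, against 4646 and 2676 for Cnn3.

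Differences between paralogs were tested within each array, in all 21 pairs among the 4 tropomyosins and among the 6 calponin and transgelin genes, a choice made after the values were seen. The 21 pairs reuse 10 genes and are not independent. In 9 of the 21 the groups did not overlap. Of all genes taken singly 22.6% do not, but no share was computed for differences between 2 genes, so the count of 9 has no background. Each of the 9 had an exact permutation p of 0.1, two-sided, the smallest the design allows, and 0.233 after Benjamini-Hochberg adjustment over the 21. With pseudocounts of 1 and 64 as well, 5 of these 9 kept the separation. Among them, the log2 differences of Tpm2 minus Tpm3 and minus Tpm4 were higher in fPS cells by 1.53 and 1.22. Both rest on the Tpm2 probe set 1372219_at, while the dimmer 1392976_at had a log2 change of -0.32. The other 3 of the 5 pairs involve Tagln or Tagln3, which were dim on nearly all arrays, so their sizes are not given.

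The genes whose pattern over the 6 arrays was most like the mean of the 10 were Adipor1, Rspry1, Morc3, Tmem30a and Tef, with Pearson's r of 0.988, 0.986, 0.980, 0.978 and 0.976 among 7913 genes with a mean intensity of at least 64. Adipor1 had 533, 595 and 937 in ES and 692, 919 and 1117 in fPS cells, high on the same 3 arrays as the mean of the 10. The 6 points share their hybridisations and scaling, and these values are a description of the arrays.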

How the data were processed

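Total RNA of 6 samples, extracted with Trizol per the labels' protocols, was measured on 6 Affymetrix arrays. The authors deposited 1 intensity for each probe set on each array, on a linear scale judging by the range; how probes were summarised, the background corrected and arrays scaled is not given in the sources used here, and no detection calls were used. The table held 31099 probe sets, of which 57 controls were left out, and 0 other columns per sample. Of the probe sets, 20826 had 1 symbol in the platform's annotation, 436 had several and were not named, and 9780 had none.

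The comparison of ES and fPS cells used lmFit and eBayes of limma 3.58.1, run under R 4.3.3, on log2(intensity + 16), a pseudocount of 16, with 2 groups, no covariate, no filter and no further normalization, and adjusted over all 31042 probe sets. The fit was tested on simulated data. Differences within arrays were compared with exact permutation tests. Python 3.11.15 and matplotlib 3.10.9 made the figures. Intervals are at 95%, and the number of arrays limits the precision.

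The genes, the lists and the alternatives were chosen with earlier results of these data known. The text names all 10 genes with every probe set, those of 20 fixed actin genes that were measured and any other past the threshold, markers among the brightest of each list, and the 5 genes most alike in pattern. Genes named because of an unadjusted p under 0.05, and Thy1, Des, Tnnt2 and Col1a2, were chosen after their values were seen. Protein sequences were not used here. The alternatives were quantile normalization, median centring, pseudocounts of 1 and 64, filters that drop the dimmest 30% or 50%, trend and robust settings, the replicate number as a block, probe sets with the suffix _x_at or _s_at left out, single arrays or both arrays numbered 3 left out, the fibroblast marker level as a covariate, and the mean over probe sets.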

Additional observations from a re-analysis of the deposited data

How the results depend on the processing

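No member gene passed under any alternative run. With a pseudocount of 1, without ES replicate 1 and without fPS replicate 2, limma called 0 probe sets of the whole array. The same held without both arrays numbered 3 and with the fibroblast covariate. These runs therefore say nothing particular about the members. Tagln and Cnn1 were not tested under the filters, nor was Myl9 without the dimmest 50%. Of the member probe sets still tested, 1 of 14 passed without the dimmest 30% and 1 of 13 without the dimmest 50%. It was 1371241_x_at of Tpm1 each time. Over the whole array, 759 of 21729 and 899 of 15521 probe sets passed under these filters. In the actin list 1 gene (Gsn) passed under the same filters and with the trend and robust settings, and in the fibroblast list 1 (Mmp2) under the same filters. Of 175 values of single member genes under alternatives, 160 kept their direction and side of the threshold and 15 changed sign. In the runs with 0 calls over the whole array, the side was fixed for every gene. Sizes moved more, as for Cnn1 (1.69 and 0.27) and Tagln (1.15 and 0.15) with pseudocounts of 1 and 64. The change of Cnn2 was 0.025 after quantile normalization and that of Actn1 -0.032 with centred arrays. With the fibroblast covariate Actn1, Myl9 and Cald1 had -0.069, -0.0094 and -0.12. Without both arrays numbered 3 Myl9 had -0.064 and Tpm1 0.10, and as the mean over its probe sets Tpm1 had 0.50 (Tpm2 kept its sign at 0.22). With single arrays left out, changes ran from -0.092 to 0.17 for Actn1, -0.087 to 0.15 for Flna, -0.14 to 0.48 for Cald1, -0.36 to 0.12 for Cnn2, -0.19 to 0.75 for Myl9, -0.56 to -0.064 for Tpm1, 0.51 to 1.05 for Tpm2, 0.43 to 1.05 for Cnn1, 0.012 to 0.63 for Tagln and -0.45 to -0.21 for Tagln2, and the median over the 10 genes from -0.033 (without ES replicate 1) to 0.29 (without ES replicate 3).

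The count over all probe sets, 215, was 337 after quantile normalization, 376 with centred arrays, 0 and 41 with pseudocounts of 1 and 64, 759 and 899 without the dimmest 30% and 50%, 619 with trend and robust settings, 0 without both arrays numbered 3, 0 with the fibroblast covariate, and from 0 to 162 without single arrays. With the replicate number as a block it was 107. Deviations from the group means of same-numbered arrays correlated at 0.151, 0.020 and 0.0748, and those of differently numbered arrays at -0.145 to 0.0545. These small values do not settle whether the numbers pair the samples. The block changed no call of a member. The cause of these shifts was not tested. The number of arrays limits what could be seen, and so does dim signal. Tagln, Cnn1 and 4 probe sets of other genes lay below the median of every array, and Myl9 below that of 5 of 6. The separated probe sets 1371241_x_at of Tpm1 and 1372219_at of Tpm2 lay below it on 2 and 1 of the arrays.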
